A study of Mus musculus with 18 samples.

Results

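The levels of 8 transcription factors that mark how mature a kidney tubule cell is were followed across all 18 libraries of a mouse kidney cortex RNA sequencing series. They were taken by gene name, 8 of the 24062 genes in the deposited table. Hnf4a, Nr1h4 and Esrra were taken as regulators of the mature tubule, and Sox4 and Sox9 as repair regulators. Pax2 and Pax8 were taken as nephron lineage factors, and Emx1 was listed with them. All 8 passed the filter on low values, which kept 13624 genes. Sox9 did so only through libraries from toxin-treated animals, since its highest vehicle library was at 0.438 RPKM. The mice were C57Bl/6. Both genotypes have a floxed Klf15 gene, which codes for a Krüppel-like zinc finger protein: Klf15fl/fl animals (fl/fl) are the controls, and in Klf15PTKO animals (PTKO) it was removed from the proximal tubule. Each genotype was sampled after the vehicle DMSO, after 2 weeks of aristolochic acid I (AA 2wk), a plant toxin that injures the proximal tubule, and after the same 2 weeks plus 2 weeks of remodeling without it (AA 4wk), with 3 libraries in each of the 6 groups. The sources used here give no Cre line, deleted exons, age or sex, and no group has Cre with intact Klf15, so genotype and Cre cannot be told apart. The labels do not say that the 3 libraries of a group came from separate mice, so the p-values measure the spread between libraries only. They give no duration for DMSO, and the same DMSO libraries serve as controls for both AA groups of their genotype.

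As background, the mature proximal tubule is held in its state by a network of nuclear receptors and homeodomain factors. HNF4A drives brush border and transporter genes, FXR (the product of Nr1h4) is the bile acid receptor, and ERR-alpha (the product of Esrra) drives mitochondrial oxidative genes. PAX2 and PAX8 are paired-box factors that specify the nephron lineage in the embryo, and PAX8 stays on in adult tubules. SOX9 is nearly silent in the resting proximal tubule and is switched on in injured cells that regenerate. SOX4, a SoxC protein, acts in nephron formation. Emx1 encodes a homeodomain protein best known from the developing forebrain, and its relative Emx2 is needed for the urogenital tract.

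Libraries held 11.0 to 21.9 M reads recovered from the RPKM steps, with 11323 to 13254 genes at 1 RPKM or more. RPKM is the read count scaled to transcript length in kilobases and to library size. Klf15 itself was at 53.0 to 65.5 RPKM in the fl/fl DMSO libraries against 28.45 to 32.6 in PTKO. The AA 2wk ranges were 18.6 to 41.3 in fl/fl and 12.5 to 25.6 in PTKO, and those of AA 4wk were 11.6 to 18.8 and 8.81 to 9.53. Its ranges did not overlap between genotypes in DMSO and AA 4wk and overlapped in AA 2wk. Library 3 of each AA 2wk group stood between the DMSO libraries and the other two for most members, and the counts of called members are given with and without both of these libraries. One PTKO DMSO library, number 3, had 24.9 RPKM of Havcr1 (the injury marker KIM-1), against 0.391 to 0.978 in the other 5 DMSO libraries. The summed level of 15 proximal tubule markers was 14510 to 16210 RPKM in DMSO, so these defining markers were present in the labelled tissue.

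Start site sequences are shown for the 3 mature regulators and for Sox4, so that genes lower after toxin can be read beside one that was higher. They come from RefSeq on GRCm38.p6, 5′ to 3′ on the strand of the gene, and 7 of the 8 members had an entry (not Sox9). Capitals mark matches, on either strand, to 6 motifs. The HNF4-type motif was CAAAGTCCA. The nuclear receptor half-site was AGGTCA, and the ERR-type motif, which contains it, was AAGGTCA. The CCAAT box was searched by its own letters. The KLF-type run was CCCCACCC, and the SOX-type motif was AACAAT. Of 32536 windows of 250 bases before a start, 0.387% held CAAAGTCCA, 14% AGGTCA, 4.09% AAGGTCA, 33.8% CCAAT, 9.12% CCCCACCC and 9.35% AACAAT. The printed Hnf4a window, before the upstream start, holds 1 CCAAT box on the opposite strand. Hnf4a has another window, chr2:163546905-163547154, before a downstream start, which also holds 1 CCAAT box on the opposite strand. That window begins inside an annotated exon, so it is not printed. Which start was used in these libraries was not tested. The Nr1h4 window holds AGGTCA on the opposite strand, 214 to 209 bases before an internal start: the window lies inside the longest annotated transcript of the gene. The Esrra window holds 1 CCCCACCC. The Sox4 window holds 4 CCAAT boxes, 3 of them in the printed stretch, which ends at the first annotated exon, and 1 AGGTCA. A match is a description of letters and not a bound site. By GENCODE M21 on GRCm38, Hnf4a spans chr2:163506808-163572910 (plus strand), Nr1h4 chr10:89454234-89533585 (minus), Esrra chr19:6910977-6921813 (minus) and Pax2 chr19:44756045-44837871 (plus). Pax8 spans chr2:24420560-24475599 (minus), Emx1 chr6:85187438-85204462 (plus), Sox4 chr13:28948919-28953713 (minus) and Sox9 chr11:112782224-112787760 (plus).
Hnf4a, chr2:163506607-163506807, plus strand: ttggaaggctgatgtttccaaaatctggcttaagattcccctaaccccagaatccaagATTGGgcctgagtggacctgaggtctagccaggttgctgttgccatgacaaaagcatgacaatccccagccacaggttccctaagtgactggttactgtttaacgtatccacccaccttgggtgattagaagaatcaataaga
Nr1h4, chr10:89506659-89506908, minus strand: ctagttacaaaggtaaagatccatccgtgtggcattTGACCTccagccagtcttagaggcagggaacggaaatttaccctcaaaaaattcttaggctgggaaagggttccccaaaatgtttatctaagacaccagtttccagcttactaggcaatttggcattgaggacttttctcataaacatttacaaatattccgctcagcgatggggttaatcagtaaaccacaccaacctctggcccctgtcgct
Esrra, chr19:6921814-6922058, minus strand: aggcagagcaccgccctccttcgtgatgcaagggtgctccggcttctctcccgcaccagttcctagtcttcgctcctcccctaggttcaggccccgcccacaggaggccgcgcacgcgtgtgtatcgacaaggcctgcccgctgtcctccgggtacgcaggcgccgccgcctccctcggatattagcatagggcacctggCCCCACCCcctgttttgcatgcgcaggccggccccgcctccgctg
Sox4, chr13:28953714-28953949, minus strand: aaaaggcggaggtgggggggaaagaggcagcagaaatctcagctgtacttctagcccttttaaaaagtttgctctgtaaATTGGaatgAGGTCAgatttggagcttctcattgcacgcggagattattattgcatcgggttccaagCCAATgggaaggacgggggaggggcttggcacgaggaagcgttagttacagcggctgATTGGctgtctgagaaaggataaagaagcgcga

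The resting cortex was ordered from Hnf4a, the most abundant member per length, to Sox9, the least. In fl/fl DMSO the mean was 289 RPKM for Hnf4a, 91.8 for Nr1h4, 59.1 for Esrra, 50.6 for Pax8, 42.2 for Emx1, 10.95 for Pax2, 3.36 for Sox4 and 0.168 for Sox9. Only Esrra and Pax8, among neighbours in this order, overlapped between libraries. In PTKO AA 4wk the order had changed, with Pax8 at a mean of 90.6 RPKM and Hnf4a at 84.9, which overlapped. Esrra followed at 38.2, Sox4 at 27.7, Nr1h4 at 27.5, Emx1 at 23.1, Pax2 at 21.3 and Sox9 at 7.59. There the libraries of Sox4, Nr1h4, Emx1 and Pax2 overlapped between neighbours, and those of Esrra and Sox9 stood apart from their neighbours.

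**Figure D1:**
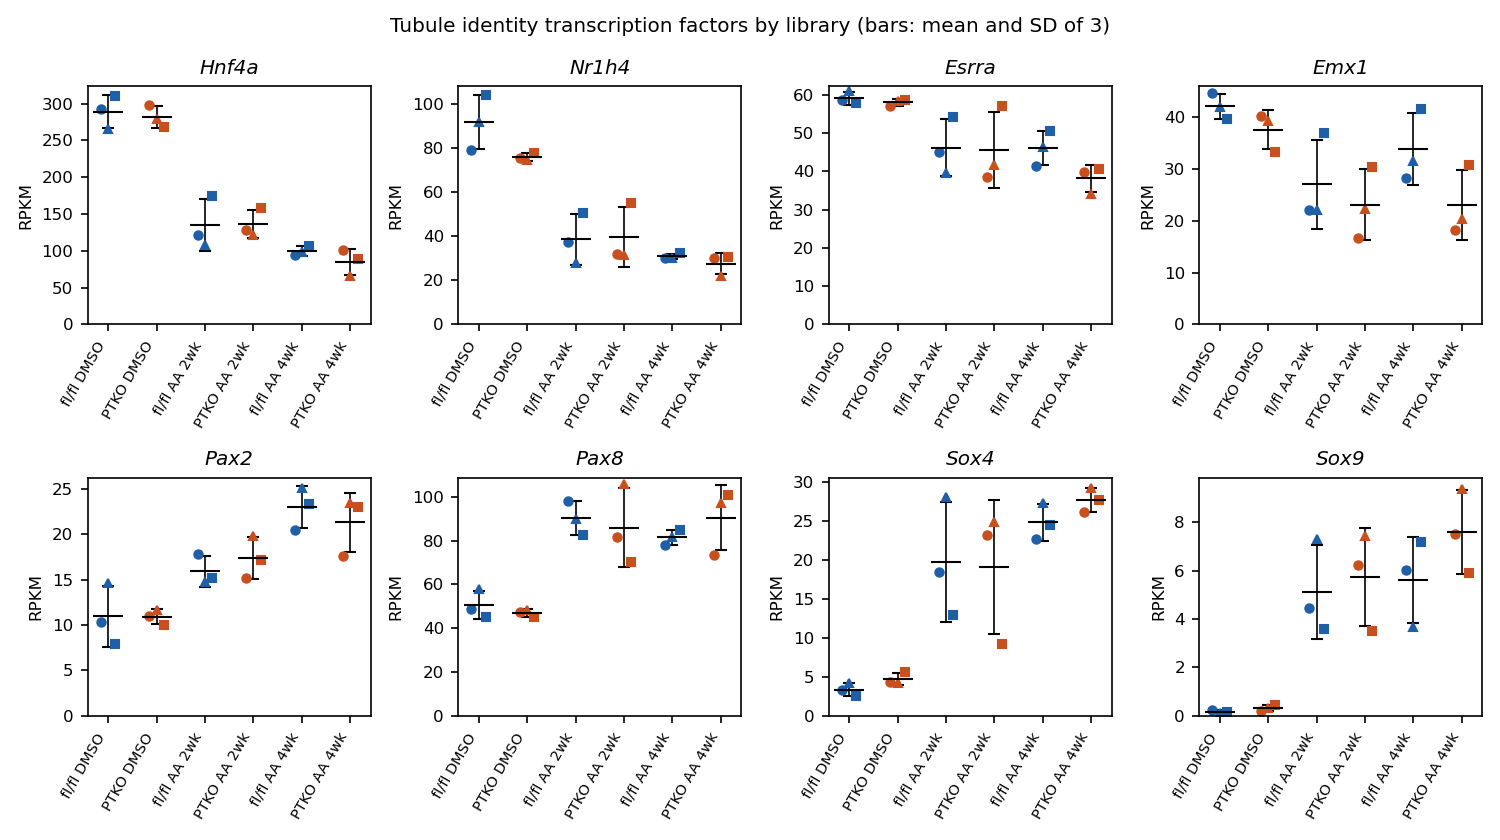
RPKM (y axis, from 0) of each member in every library, by group (x axis). Circles, triangles and squares are libraries 1, 2 and 3, blue is fl/fl, orange is PTKO, and black bars are the mean and SD of 3. Hnf4a and Nr1h4 are lower, and Sox4 and Sox9 higher, in every AA library than in every DMSO library.

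After toxin the 3 mature regulators fell and both repair regulators rose in each genotype, at 2 weeks and at 4 weeks. Pax2 and Pax8 rose with the repair regulators, and Emx1 fell in 3 of the 4 comparisons. By limma on log2(RPKM + 1), with Benjamini-Hochberg adjustment over all 13624 genes and a call at 0.05, 8 of 8 members were called in fl/fl AA 2wk (4 higher, 4 lower), against 62.6% of all genes (50.4% higher, 12.2% lower). In PTKO AA 2wk it was 8 of 8 (4 higher, 4 lower), against 60.2% (45.9% higher, 14.3% lower). In fl/fl AA 4wk it was 7 of 8 (4 higher, 3 lower), against 66.3% (51.9% higher, 14.3% lower). In PTKO AA 4wk it was 8 of 8 (4 higher, 4 lower), against 72.2% (55.0% higher, 17.3% lower). Most genes were called, so the count of members is read only against these shares. Sox9 is among the members called higher and passed the filter only through AA libraries. The libraries of AA and DMSO did not overlap for 8, 8, 7 and 8 of the 8 members, against 63.4%, 62.9%, 72.2% and 80.4% of all genes. Leaving out both AA 2wk libraries numbered 3 gave the same 4 counts. The median gene moved by 0.33, 0.29, 0.35 and 0.40 on the log2 scale, in the same order. With median-of-ratios scaling, which removes that shift, the share of called genes that were higher went from 80.5%, 76.3%, 78.4% and 76.1% to 50.2%, 49.5%, 49.3% and 49.3%. Under it 7, 7, 7 and 8 of the 8 members were called, with 3, 3, 3 and 4 higher and 4 lower in each. No member changed direction under it in these comparisons.

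**Figure D2:**
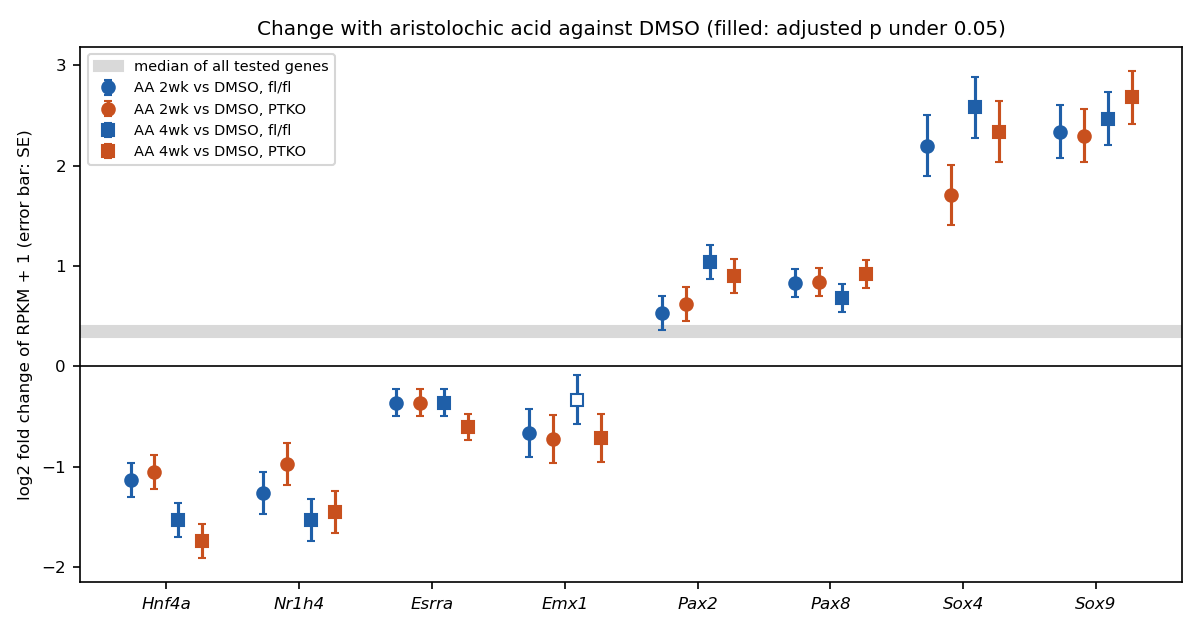
Log2 fold change of RPKM + 1 against DMSO (y axis) for each member (x axis), with error bars of 1 SE. Circles are AA 2wk, squares AA 4wk, blue fl/fl, orange PTKO, a filled symbol is called, and the grey band spans the median of all genes, 0.29 to 0.40. Hnf4a and Nr1h4 lie far below the band, Sox4 and Sox9 far above it, and Pax2 in AA 2wk close above it.

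Hnf4a, the nuclear receptor that drives proximal tubule genes, was at 292.5, 266 and 310 RPKM in fl/fl DMSO and 298, 279 and 268 in PTKO DMSO. After AA 2wk it was at 121, 108 and 175 in fl/fl and 128, 122 and 158 in PTKO. After AA 4wk it was at 93.9, 97.8 and 107 in fl/fl and 101, 65.5 and 88.5 in PTKO. Every AA library was below every DMSO library, and the highest AA 2wk value in each genotype was library 3. The mean fell from 289 ± 22.4 (SD, n = 3) to 135 ± 35.4 in fl/fl AA 2wk and to 99.55 ± 6.66 in AA 4wk, or 2.15-fold and 2.91-fold lower. The log2 change was -1.13 ± 0.17 (SE) at 2 weeks (limma adjusted p = 7.94e-05) and -1.53 ± 0.17 at 4 weeks (adjusted p = 4.03e-06). In PTKO it was -1.05 ± 0.17 (adjusted p = 0.000146) and -1.74 ± 0.17 (adjusted p = 9.96e-07), 2.07-fold and 3.32-fold lower on mean RPKM. These changes lay in the lowest 2.3% to 4.1% of all genes.

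Nr1h4, which encodes the bile acid receptor FXR, followed Hnf4a. In fl/fl it was at 79.4, 92.05 and 104 RPKM with DMSO, 37.35, 27.8 and 50.8 at AA 2wk, and 30.2, 30.25 and 32.2 at AA 4wk. The PTKO libraries were at 75.5, 74.7 and 78.0 with DMSO, 32.1, 31.7 and 55.2 at AA 2wk, and 30.01, 21.9 and 30.55 at AA 4wk. No AA library reached a DMSO library of its genotype. Its log2 change was -1.26 ± 0.21 (limma adjusted p = 0.000198) and -1.53 ± 0.21 (adjusted p = 2.75e-05) in fl/fl at 2 and 4 weeks. In PTKO it was -0.97 ± 0.21 (adjusted p = 0.00148) and -1.45 ± 0.21 (adjusted p = 3.2e-05). Fewer proximal tubule cells and less RNA per cell cannot be told apart in these bulk libraries, here or for any member.

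Esrra, the receptor behind mitochondrial gene programs, fell less than the other 2 mature regulators. In DMSO it was at 58.6, 61.0 and 57.8 RPKM in fl/fl and 57.1, 58.5 and 58.7 in PTKO, the tightest of the 8 members with coefficients of variation of 2.80% and 1.52%. After AA 2wk it was at 45.0, 39.4 and 54.2 in fl/fl and 38.4, 41.6 and 57.0 in PTKO. After AA 4wk it was at 41.5, 46.3 and 50.5 in fl/fl and 39.75, 34.1 and 40.7 in PTKO. The AA libraries were all below the DMSO libraries of their genotype, in PTKO AA 2wk only just: library 3 had 57.0 and the lowest DMSO library 57.1. The log2 change was -0.36 ± 0.13 in fl/fl AA 2wk (limma adjusted p = 0.0296), in fl/fl AA 4wk (adjusted p = 0.0294) and in PTKO AA 2wk (adjusted p = 0.0307), and -0.60 ± 0.13 in PTKO AA 4wk (adjusted p = 0.00104). The 3 smaller calls ended when single libraries were left out. Limma adjusted p was 0.0528 to 0.14 without 1 of 5 libraries in fl/fl AA 2wk. It was 0.0579 to 0.153 without 1 of 5 in PTKO AA 2wk, and 0.0524 to 0.116 without 1 of 5 in fl/fl AA 4wk. Relative to the median of all genes, these 3 log2 changes of Esrra were larger, at -0.69, -0.65 and -0.71 in that order. Over all alternatives they ran from -0.76 to -0.25, -0.70 to -0.25 and -0.78 to -0.28. Exons of Esrra overlap Trmt112 on the other strand, which was at 15.6 ± 0.51 RPKM in fl/fl DMSO and 12.9 ± 1.57 in fl/fl AA 2wk, and Mir6990 on the same strand. Whether the counting used strand is not given in the sources used here.

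Emx1 fell at 2 weeks in both genotypes and at 4 weeks in PTKO. In fl/fl it was at 44.65, 42.1 and 39.7 RPKM with DMSO, 22.2, 22.15 and 37.0 at AA 2wk, and 28.4, 31.5 and 41.6 at AA 4wk. The PTKO values were 40.3, 39.3 and 33.4 with DMSO, 16.7, 22.25 and 30.4 at AA 2wk, and 18.25, 20.3 and 30.8 at AA 4wk. Library 3 was the highest of its group in all 4 AA groups, and in fl/fl AA 4wk it overlapped DMSO. The log2 change was -0.66 ± 0.24 (limma adjusted p = 0.0246) and -0.33 ± 0.24 (adjusted p = 0.234) in fl/fl, and -0.72 ± 0.24 (adjusted p = 0.0169) and -0.71 ± 0.24 (adjusted p = 0.0138) in PTKO. The fl/fl AA 4wk value was called with median-of-ratios scaling (-0.75, adjusted p = 0.0244) and with voom on recovered reads (-0.73, adjusted p = 0.017). The fl/fl AA 2wk call ended without DMSO library 1 (adjusted p = 0.0694), AA library 1 (adjusted p = 0.0973) or AA library 2 (adjusted p = 0.0953). In PTKO the AA 2wk call ended without DMSO library 1 (adjusted p = 0.053) or AA library 1 (adjusted p = 0.0938), and the AA 4wk call without AA library 1 (adjusted p = 0.0651).

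Pax2 and Pax8, which specify nephron cells in the embryo, were higher after toxin. Pax2 in fl/fl was at 10.3, 14.6 and 7.95 RPKM with DMSO, 17.9, 14.7 and 15.15 at AA 2wk, and 20.5, 25.1 and 23.4 at AA 4wk. In PTKO it was at 11.0, 11.7 and 10.02 with DMSO, 15.2, 19.8 and 17.2 at AA 2wk, and 17.6, 23.4 and 23.0 at AA 4wk. The groups did not overlap with DMSO, though fl/fl AA 2wk began at 14.7 and DMSO ended at 14.6. The log2 change was 0.53 ± 0.17 (limma adjusted p = 0.0132) and 1.04 ± 0.17 (adjusted p = 9.55e-05) in fl/fl, and 0.62 ± 0.17 (adjusted p = 0.00566) and 0.90 ± 0.17 (adjusted p = 0.00025) in PTKO. With median-of-ratios scaling the 2-week calls ended, at 0.16 (adjusted p = 0.368) in fl/fl and 0.30 (adjusted p = 0.093) in PTKO, and with voom they were 0.18 (adjusted p = 0.37) and 0.32 (adjusted p = 0.106). The fl/fl 2-week call also ended without DMSO library 3 (adjusted p = 0.0819) or AA library 1 (adjusted p = 0.0582). The 4-week calls held under every alternative run.

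Pax8 in fl/fl was at 48.7, 57.85 and 45.2 RPKM with DMSO, 98.0, 90.15 and 82.5 at AA 2wk, and 78.0, 81.8 and 84.8 at AA 4wk. PTKO libraries were at 47.4, 48.5 and 45.1 with DMSO, 81.8, 106 and 70.3 at AA 2wk, and 73.55, 97.1 and 101 at AA 4wk. Every AA library was above every DMSO library. The log2 change was 0.83 ± 0.14 (limma adjusted p = 0.000219) and 0.68 ± 0.14 (adjusted p = 0.000719) in fl/fl, and 0.84 ± 0.14 (adjusted p = 0.000211) and 0.92 ± 0.14 (adjusted p = 4.77e-05) in PTKO. These changes stood at the 70.3 to 81.9 percentiles of all genes. With median-of-ratios scaling the fl/fl AA 4wk call ended (0.26, adjusted p = 0.065). Markers of distal segments were mixed in the same comparisons, listed as fl/fl AA 2wk, fl/fl AA 4wk, PTKO AA 2wk and PTKO AA 4wk. Of 6 collecting duct principal cell markers, 2, 4, 4 and 3 were called higher and 1, 0, 0 and 1 lower. Of 5 thick ascending limb markers, 3, 4, 1 and 1 were called higher and 0 lower. Of 4 distal convoluted tubule markers, 0 were called higher and 1 lower in each. Of all genes 50.4%, 51.9%, 45.9% and 55.0% were called higher and 12.2%, 14.3%, 14.3% and 17.3% lower. The collecting duct sum was 260.9 to 328 RPKM in DMSO and 359 to 851 across the AA libraries, which did not overlap. The thick ascending limb sum was 1305 to 2609 in DMSO and 1375 to 5399 across the AA libraries. Their part in the Pax2 and Pax8 values was not tested.

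Sox4 and Sox9 had the largest log2 changes of the 8 members. Relative to the median of all genes, Sox9 was still the largest in PTKO AA 4wk (2.28). There Hnf4a (-2.14) moved further than Sox4 (1.94). Sox4 in fl/fl was at 3.32, 4.18 and 2.59 RPKM with DMSO, 18.45, 28.1 and 12.9 at AA 2wk, and 22.7, 27.3 and 24.5 at AA 4wk. The PTKO libraries were at 4.325, 4.19 and 5.61 with DMSO, 23.2, 24.9 and 9.17 at AA 2wk, and 26.1, 29.3 and 27.7 at AA 4wk. All AA libraries were above all DMSO libraries, and library 3 was the lowest in both AA 2wk groups. The mean was 5.89-fold and 7.38-fold higher in fl/fl and 4.06-fold and 5.89-fold higher in PTKO, at 2 and 4 weeks. The log2 change was 2.20 ± 0.30 (limma adjusted p = 3.68e-05) and 2.58 ± 0.30 (adjusted p = 6.37e-06) in fl/fl, and 1.71 ± 0.30 (adjusted p = 0.000289) and 2.34 ± 0.30 (adjusted p = 1.02e-05) in PTKO. Its single exon overlaps Gm26735 on the other strand.

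Sox9 was close to silent in DMSO, at 0.241, 0.0970 and 0.168 RPKM in fl/fl and 0.209, 0.3335 and 0.438 in PTKO, from 7 to 26 recovered reads a library. After AA 2wk it was at 4.44, 7.30 and 3.58 in fl/fl and 6.25, 7.44 and 3.52 in PTKO. After AA 4wk it was at 6.03, 3.67 and 7.165 in fl/fl and 7.50, 9.38 and 5.89 in PTKO. No AA library overlapped DMSO. Only AA libraries brought Sox9 past the filter on low values, so its calls against DMSO describe it and are not independent support. Mean RPKM was 30.3-fold and 33.4-fold higher in fl/fl and 17.5-fold and 23.2-fold higher in PTKO, ratios that rest on few DMSO reads. On the log2(RPKM + 1) scale, which understates a change from so low a level, it rose by 2.34 ± 0.26 (limma adjusted p = 6.28e-06) and 2.47 ± 0.26 (adjusted p = 2.47e-06) in fl/fl, and by 2.30 ± 0.26 (adjusted p = 7.61e-06) and 2.68 ± 0.26 (adjusted p = 8.81e-07) in PTKO.

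The balance of mature to repair regulators can be read within a library, where depth cancels. Hnf4a RPKM divided by Sox9 RPKM was 1216 to 2740 in fl/fl DMSO and 612 to 1424 in PTKO DMSO. The AA 2wk ranges were 14.8 to 48.8 in fl/fl and 16.4 to 44.9 in PTKO, and those of AA 4wk 14.9 to 26.7 and 6.98 to 15.0. The DMSO libraries stood apart from the AA libraries by more than an order of magnitude. Hnf4a divided by Sox4 in the DMSO libraries was 63.5 to 120 in fl/fl and 47.8 to 68.8 in PTKO. At 2 weeks it was 3.84 to 13.6 and 4.90 to 17.2, and at 4 weeks 3.58 to 4.36 and 2.24 to 3.85. The highest AA value was library 3 of PTKO AA 2wk, and libraries 3 were the highest of both AA 2wk groups. Pax8 divided by Hnf4a in the DMSO libraries was 0.146 to 0.218 in fl/fl and 0.159 to 0.174 in PTKO. At 2 weeks it was 0.472 to 0.835 and 0.445 to 0.866, and at 4 weeks 0.793 to 0.836 and 0.730 to 1.48. Pax8 exceeded Hnf4a per length in 2 libraries, both PTKO AA 4wk.

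**Figure D3:**
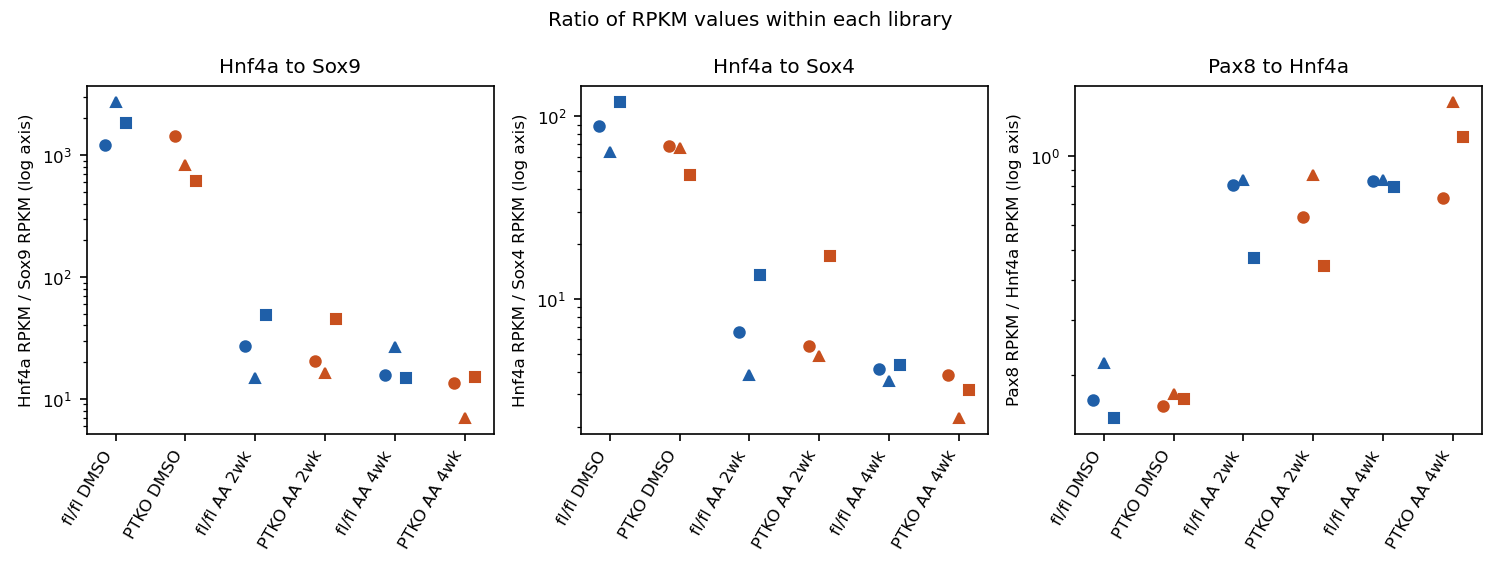
Ratio of RPKM values within each library (y axis, log scale) by group (x axis) for Hnf4a to Sox9, Hnf4a to Sox4 and Pax8 to Hnf4a. Circles, triangles and squares are libraries 1, 2 and 3, blue is fl/fl and orange is PTKO. The DMSO libraries do not overlap the AA libraries in any panel.

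The AA 2wk libraries numbered 3 stood part of the way from DMSO to the mean of libraries 1 and 2, on the log2 scale. For Sox9 they stood at 78% of the way in fl/fl and 69% in PTKO, for Sox4 at 68% and 39%, and for Hnf4a at 54% and 71%. For Nr1h4 it was 57% and 37%, for Emx1 20% and 32%, and for Esrra 26% and 5%. Pax2 stood at 84% and 98% and Pax8 at 79% and 59%. The summed level of macrophage markers in AA 2wk ran from 369.5 to 2504 RPKM in fl/fl and 780.6 to 2254 in PTKO, and that of proximal tubule markers from 4294 to 8353 and 4099 to 8881. The part of these cell types in the members' values was not tested.

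Between 2 and 4 weeks the members moved less. In fl/fl, 0 of 8 members were called, against 0.125% of all genes (0.0661% higher, 0.0587% lower). At an unadjusted p under 0.05 there were 2, Hnf4a at -0.40 (95% interval -0.77 to -0.04, adjusted p = 0.364) and Pax2 at 0.51 (0.15 to 0.87, adjusted p = 0.259), and voom called 0. In PTKO 1 of 8 was called, against 4.16% of all genes (2.60% higher, 1.56% lower): Hnf4a, at -0.69 ± 0.17 (limma adjusted p = 0.0391), with 122 to 158 RPKM at 2 weeks and 65.5 to 101 at 4 weeks, which did not overlap. That call ended in 15 of 26 alternatives. Among them were median-of-ratios scaling (adjusted p = 0.0537), voom (adjusted p = 0.0521), and leaving out AA 4wk library 2 (-0.51, adjusted p = 0.2) or AA 2wk library 3 (-0.58, adjusted p = 0.121). Nr1h4 in PTKO moved by -0.48 (95% interval -0.94 to -0.02, adjusted p = 0.168) and Sox4 by 0.63 (-0.02 to 1.27, adjusted p = 0.196). Sox4 and Sox9 were not called lower after the remodeling period: their 4-week minus 2-week values in fl/fl were 0.37 (-0.27 to 1.02) and 0.12 (-0.43 to 0.68). Libraries did not overlap for 2 of 8 members in fl/fl and 3 of 8 in PTKO, against 20.8% and 29.6% of all genes.

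No member passed the test between PTKO and fl/fl in any treatment. By limma, 0 of 8 were called in DMSO (0.0367% of all genes, 0.0147% higher and 0.0220% lower), 0 of 8 in AA 2wk (0.00734%) and 0 of 8 in AA 4wk (0.00734%). The unadjusted p was under 0.05 for 0, 0 and 1 of them, and voom called 0 in each. The interactions, which ask whether the toxin effect differed between genotypes, called 0 of 8 at 2 weeks (0.0147%) and 0 of 8 at 4 weeks (0.00734%), with 0 at an unadjusted p under 0.05 in each. Median-of-ratios scaling and leaving out both AA 2wk libraries numbered 3 also called 0. Between the 2 AA 2wk groups, same-numbered libraries deviated together (correlations of 0.44, 0.43 and 0.66). With the replicate number as a block, fitted over all groups, 0 of 8 members and 3 genes in all were called there, against 1 gene without it. That block cannot remove a pairing limited to the AA 2wk groups, and no paired fit of these groups alone was run. The intervals show what size the data allow. For Hnf4a the PTKO minus fl/fl difference with DMSO was -0.04 (95% interval -0.40 to 0.33). After AA 2wk it was 0.04 (-0.33 to 0.40), and after AA 4wk -0.25 (-0.61 to 0.12). For Esrra the same 3 differences were -0.02 (-0.31 to 0.26), -0.02 (-0.31 to 0.26) and -0.27 (-0.55 to 0.02). Intervals of the interactions were wider. At 2 and 4 weeks they were -0.44 to 0.59 and -0.73 to 0.31 for Hnf4a. For Sox4 the interaction was -0.49 (-1.41 to 0.42) and -0.24 (-1.15 to 0.67), and for Sox9 -0.04 (-0.83 to 0.74) and 0.21 (-0.57 to 1). A sizeable genotype difference in the Sox4 response is thus not excluded.

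Emx1 at AA 4wk was the 1 member with an unadjusted p under 0.05 between genotypes, at 28.4 to 41.6 RPKM in fl/fl and 18.25 to 30.8 in PTKO, which overlapped. Its difference was -0.55 ± 0.24 (95% interval -1.05 to -0.04, limma adjusted p = 0.812, and 0.0762 to 1 over its alternatives). In DMSO the genotypes did not overlap for Nr1h4, lower in PTKO (74.7 to 78.0 against 79.4 to 104), and for Sox4, higher in PTKO (4.19 to 5.61 against 2.59 to 4.18), 2 of 8 members against 13.6% of all genes. In AA 4wk Esrra alone did not overlap (34.1 to 40.7 in PTKO against 41.5 to 50.5), 1 of 8 against 23.8%, and in AA 2wk 0 of 8 against 6.69%. The Sox4 difference in DMSO was 0.39 (95% interval -0.25 to 1.04, limma adjusted p = 1, and 0.0569 to 1 over its alternatives). The PTKO DMSO library with high Havcr1 had the highest Sox4 and Sox9 of the 6 DMSO libraries, and without it the Sox4 difference was 0.28 and the Sox9 difference 0.12.

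**Figure D4:**
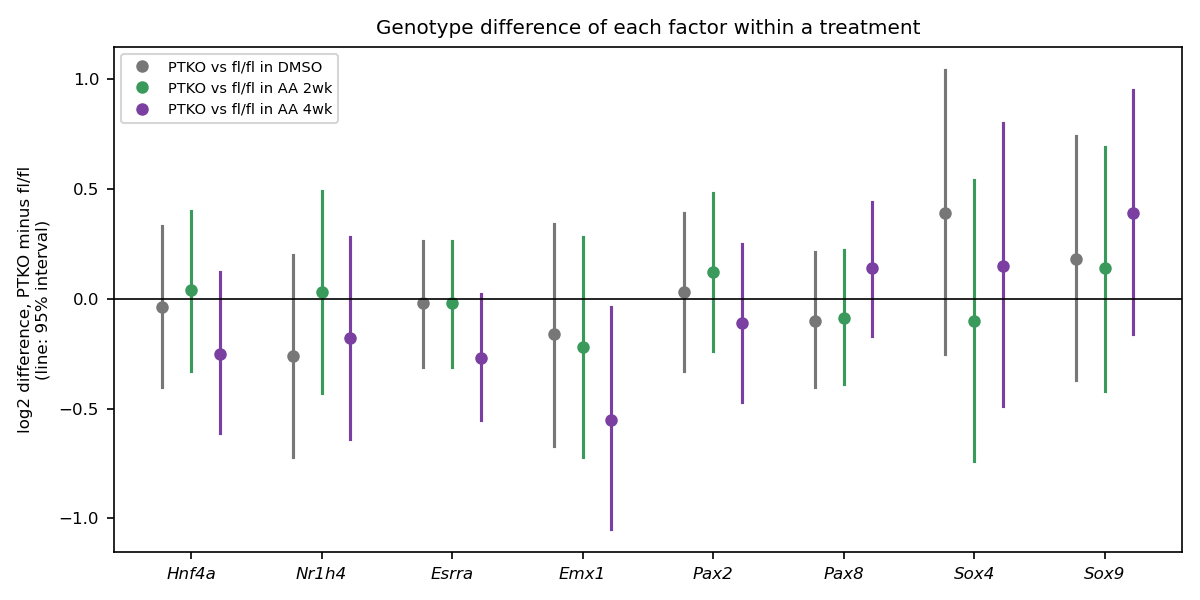
PTKO minus fl/fl difference on the log2(RPKM + 1) scale (y axis) for each member (x axis), with 95% intervals from limma. Grey is DMSO, green AA 2wk and purple AA 4wk. All intervals include 0 except Emx1 at AA 4wk (-1.05 to -0.04).

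Among other mature tubule regulators, more were called lower than higher after toxin. Of 15 listed, 7 were called lower and 2 higher in fl/fl AA 2wk, 7 and 1 in fl/fl AA 4wk, 8 and 2 in PTKO AA 2wk, and 9 and 1 in PTKO AA 4wk, with medians of -0.25, -0.34, -0.50 and -0.60 beside 0.33, 0.35, 0.29 and 0.40 for all genes. Of all genes 12.2%, 14.3%, 14.3% and 17.3% were called lower and 50.4%, 51.9%, 45.9% and 55.0% higher in that order, which is kept for the lists that follow. With median-of-ratios scaling 10, 9, 11 and 13 of the 15 were lower and 0, 0, 1 and 0 higher, with medians of -0.65, -0.75, -0.84 and -1.02. Without both AA 2wk libraries numbered 3 it was 9, 9, 9 and 10 lower and 2, 2, 2 and 1 higher. In fl/fl AA 2wk Vdr, the vitamin D receptor, was among the largest called changes (-0.98 ± 0.16, from 113.5 ± 8.38 to 59.1 ± 21.3 RPKM). The smallest were Nr3c1, the glucocorticoid receptor (0.35 ± 0.12), and Tfeb, a lysosomal regulator (0.27 ± 0.08). In fl/fl AA 4wk Ppara, the fatty acid oxidation receptor, had the largest (-1.52 ± 0.29, from 30.6 ± 0.662 to 9.997 ± 0.964 RPKM). Ppargc1a, the coactivator of ERR-alpha, named after its values were seen, was called in none of the 4 (0.05, 0.00, -0.34 and -0.38).

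Genes that depend on HNF4A were called lower after toxin and none was called higher. Of 16 tested of 18 listed, 13, 14, 11 and 15 were called lower and 0 higher (fl/fl AA 2wk, fl/fl AA 4wk, PTKO AA 2wk, PTKO AA 4wk), with medians of -1.50, -1.81, -1.79 and -2.16. Without both AA 2wk libraries numbered 3, 13, 15, 12 and 15 were lower. Cyp4b1, a cytochrome P450, had the largest change in fl/fl AA 2wk (-4.01 ± 0.44, from 2349 ± 674 to 166 ± 121 RPKM), followed by Slc22a6, the organic anion transporter OAT1 (-3.24 ± 0.57). Fbp1, a gluconeogenic enzyme (-1.07 ± 0.30), and Dab2, an endocytic adaptor (-0.57 ± 0.13), were the smallest called. Of the 18 genes, 4 (Slc22a6, Slc34a1, Cubn and Slc5a2) are also in the proximal tubule marker list, whose sum was 4424 to 5127 RPKM in fl/fl AA 4wk and 2151 to 3698 in PTKO AA 4wk. The part of tubule cell number in these falls was not tested.

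ERR-alpha targets fell in most cases: of 13 tested of 14 listed, 8, 8, 9 and 9 were called lower and 1, 1, 0 and 1 higher, with medians of -0.42, -0.54, -0.61 and -0.89. With median-of-ratios scaling 10, 10, 10 and 11 were lower and 1, 0, 0 and 0 higher, with medians of -0.82, -0.98, -0.96 and -1.37. Without both AA 2wk libraries numbered 3, 8, 8, 9 and 9 were lower. Acadm, a fatty acid oxidation enzyme, was the largest in fl/fl AA 2wk (-1.56 ± 0.19), and Pdk4, a kinase that inhibits pyruvate dehydrogenase, was higher (1.41 ± 0.34). FXR targets were mixed. Of 9 tested of 12 listed, 3, 4, 4 and 3 were called higher and 3, 3, 2 and 3 lower, with medians of 0.32, 0.54, -0.43 and -0.16. Pltp, a phospholipid transfer protein, was higher in fl/fl AA 2wk (3.05 ± 0.36) and Slc51a, a bile acid exporter subunit, lower (-1.42 ± 0.28). Aqp2 is also in the collecting duct marker list and was called higher in fl/fl AA 4wk (1.26 ± 0.33) and PTKO AA 2wk (1.24 ± 0.33). The part of cell types in the values of this list was not tested. With median-of-ratios scaling 3, 4, 4 and 3 FXR targets were higher and 4, 3, 5 and 4 lower, and without both AA 2wk libraries numbered 3 the counts were the same as these.

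Nephron development regulators were mixed, and their balance followed the scaling. Of 19 tested of 23 listed, 7, 10, 7 and 9 were called higher and 1, 1, 4 and 2 lower, and with median-of-ratios scaling 5, 5, 5 and 7 higher and 3, 4, 5 and 4 lower. Without both AA 2wk libraries numbered 3, 10, 11, 9 and 9 were higher and 1, 1, 4 and 3 lower. Wnt4, a nephron inducer, had the largest change in fl/fl AA 4wk (2.06 ± 0.20, from 0.335 ± 0.101 to 4.56 ± 0.253 RPKM), and Foxc1 followed (1.35 ± 0.19). Emx2, the relative of Emx1, named after its values were seen, was called in none of the 4 comparisons. Among 17 other SOX genes 7 were tested, and 2, 2, 1 and 2 were called higher and 0, 0, 0 and 1 lower. With median-of-ratios scaling 1 was higher in each comparison and 3, 1, 1 and 2 lower, so the direction of this family follows the scaling. Without both AA 2wk libraries numbered 3, 1, 3, 2 and 2 were higher and 0, 1, 0 and 1 lower. Sox11, the relative of Sox4, was listed at 0.0113 ± 0.0142 RPKM in fl/fl DMSO and at 1.59 ± 0.508 in AA 2wk. Like Sox9, Sox11 and Wnt4 were low in DMSO and passed the filter only through AA libraries. No gene among 7 other PAX genes reached 1 RPKM, with the highest library value 0.233 (Pax9), and of 7 cartilage genes that SOX9 drives elsewhere none did, with the highest 0.470 (Comp).

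The genes of injured and repairing tubule, listed for their setting with Sox9, all rose. In each of the 4 comparisons 16 of 16 were called higher, with medians of 2.27, 2.52, 2.54 and 2.78. Like the other lists, this one was chosen with earlier results of these data known, so its counts describe and do not test. With median-of-ratios scaling the counts were 15, 16, 16 and 15, with voom 15, 16, 16 and 16, and without both AA 2wk libraries numbered 3 all 16 in each, in the order fl/fl AA 2wk, fl/fl AA 4wk, PTKO AA 2wk and PTKO AA 4wk. Havcr1 changed most in fl/fl AA 2wk (8.33 ± 0.86, from 0.642 ± 0.224 to 528 ± 82.6 RPKM), and Krt20, a keratin, next (5.30 ± 0.54). Itgav, an integrin (1.26 ± 0.14), and Krt7, a simple keratin (0.72 ± 0.18), were the smallest. Markers of other cell types differed in the same comparisons. All 7 macrophage markers were called higher in each of the 4, and of 6 fibroblast markers 4, 5, 0 and 5 were. The sum of 7 macrophage markers was 58.3 to 93.05 RPKM in fl/fl DMSO and 1813 to 2784 in fl/fl AA 4wk, and in PTKO it was 72.6 to 112 and 2943 to 4170. The sum of 6 fibroblast markers was 17.9 to 79.2 and 205 to 295 in fl/fl, and 52.6 to 65.0 and 367 to 394 in PTKO. In PTKO AA 2wk the fibroblast sum was 19.9 to 312.5, which overlapped PTKO DMSO. Their part in the Sox4 and Sox9 values was not tested.

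**Figure D5:**
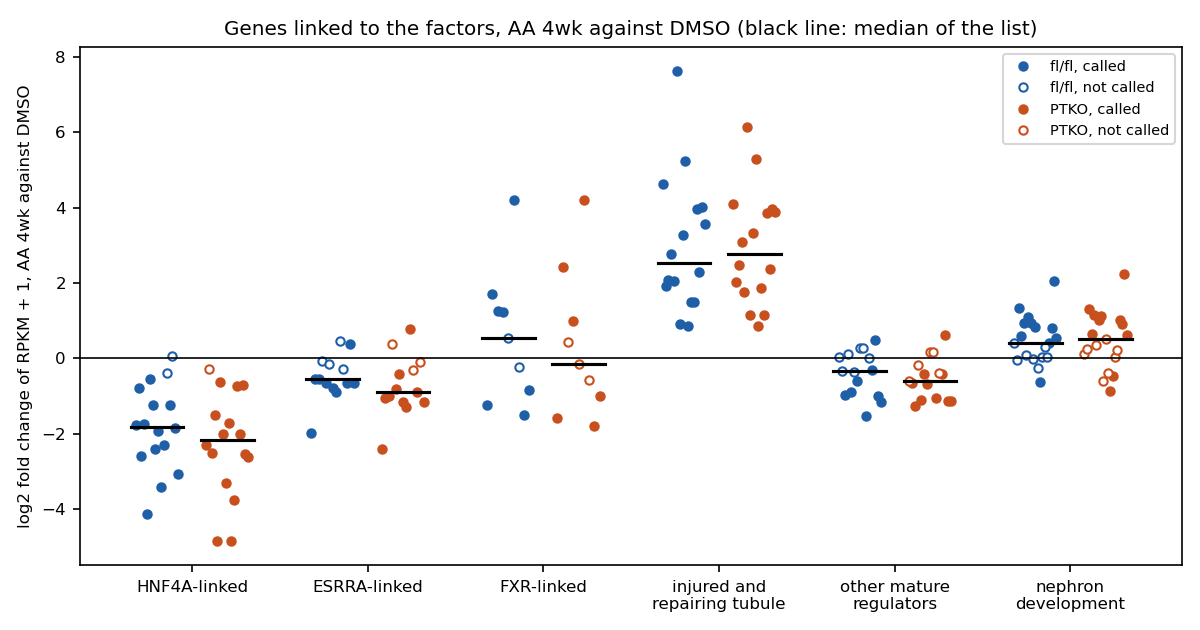
Log2 fold change of RPKM + 1, AA 4wk against DMSO (y axis), for each gene of 6 lists (x axis), blue fl/fl and orange PTKO, filled when called. Black lines are list medians: -1.81 and -2.16 for HNF4A-linked genes, and 2.52 and 2.78 for genes of injured and repairing tubule.

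Across the 18 libraries the members formed groups that mirror the treatments, so these correlations describe shared treatment differences. Genes of 1 library also share its preparation and its scaling. Pearson's r of log2(RPKM + 1) over 18 libraries was 0.97 for Hnf4a with Nr1h4, 0.97 for Sox4 with Sox9 and -0.98 for Nr1h4 with Sox4. After the group means were removed it was 0.90 for Esrra with Nr1h4, 0.84 for Hnf4a with Nr1h4 and 0.76 for Pax2 with Pax8. It was then 0.67 for Sox4 with Sox9 and -0.86 for Nr1h4 with Sox4. Emx1, listed with Pax2 and Pax8, had r of -0.42 and -0.64 with them and 0.86 with Esrra over the 18 libraries. With the group means removed these were 0.25, 0.01 and 0.80. Removing group means leaves in any difference in toxin response between libraries of a group, so these values can still describe treatment. For every member, the AA 2wk libraries numbered 3 stood between DMSO and the mean of the other libraries of their group. They stood at 20% (Emx1) to 84% (Pax2) of the way in fl/fl, and at 5% (Esrra) to 98% (Pax2) in PTKO. Their part in these correlations was not tested. Over the 18 libraries the genes most like Hnf4a were Kcnj15, BC021785 and Mettl7b (r of 0.995, 0.994 and 0.992). Those most like Nr1h4 were Hlf, Aldh9a1 and 4833439L19Rik (0.983, 0.982 and 0.982), and those most like Esrra were Pccb, Ndufs7 and Acadvl (0.974, 0.974 and 0.971). Sox4 was nearest to Marcksl1, Akt1 and Nfkb1 (0.993, 0.993 and 0.992) and Sox9 to Krt18, Mvp and Arl4c (0.992, 0.990 and 0.989). Pax2 was nearest to Sh2b1, Golga2 and Phf2 (0.965, 0.960 and 0.960), Pax8 to Nr2c2ap, Ilf2 and Rps26 (0.976, 0.975 and 0.975), and Emx1 to 0610009O20Rik, Idh2 and Pgam2 (0.918, 0.916 and 0.915).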

How the data were processed

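RNA from kidney cortex was sequenced after TruSeq Stranded Total RNA library preparation, per the labels' protocols. The authors deposited RPKM values for 24062 genes in 18 libraries, per the file headers. Per the submitters' processing notes the tools were bcl2fastq 2.19 and kallisto, on build mm10. Annotation and counting: not given in the sources used here. Whole reads were recovered from the RPKM steps for 100% of 17579 genes above 0 in at least 6 libraries (tolerance 0.02 reads).

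Genes that reached 1 RPKM in 3 or more libraries were tested with limma 3.58.1 in R 4.3.3 on log2(RPKM + 1) with 6 group means, trend and robust options and Benjamini-Hochberg adjustment, two-sided. The procedure was tested on simulated data, with independent noise and few genes changed, as many up as down. Those data lacked the shift of most genes seen here, so they do not test the scaling. With 3 libraries a group, exact permutation could give no p below 0.1, so limma was used. Alternatives were another pseudocount, no filter, median-of-ratios scaling, voom on recovered reads (TMM factors), a fit of the compared groups only, sample quality weights (gene-by-gene method, since the default did not converge), a replicate block and left-out libraries. The members and lists were chosen with earlier results of these data known. Named genes are all members, the 2 largest and 2 smallest called changes of a list in a comparison, from which a few are printed, and the 3 genes most correlated with each member. Some genes and motifs are not reported here.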

Additional observations from a re-analysis of the deposited data

How the results depend on the processing

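Of the members' results under 26 settings, 46 lost and 3 gained their call, 2239 did neither, and no called result reversed. A change of sign was not counted where neither fit called the member. Some of those small differences did change sign, such as Sox4 between genotypes in AA 2wk (-0.36 to 0.33). The replicate numbers were not shown to pair libraries across the 6 groups: 22 of 45 same-numbered pairs had a correlation of deviations over 0.1 (lowest -0.16, highest 0.66). Of 15 pairs of groups, only the AA 2wk groups of both genotypes had all 3 pairs over 0.1 (0.44, 0.43 and 0.66). The fit with the replicate block called 40 genes between AA 4wk and AA 2wk in fl/fl and 1570 in PTKO, 1 for the interaction at 2 weeks, and 2, 3 and 2 between genotypes in DMSO, AA 2wk and AA 4wk. Without the block these counts were 17, 567, 2, 5, 1 and 1, and the block changed no member's call. With pseudocount 0.1 the counts were 10 and 292 (AA 4wk against AA 2wk, fl/fl and PTKO) and 2 (genotype, AA 2wk). With voom they were 8 and 299, and 3 for the interaction at 4 weeks, also 3 with median-of-ratios scaling. The fit of the compared groups only called 0 and 0 between AA 4wk and AA 2wk, 1 for the interaction at 2 weeks and 11 for genotype in DMSO. Without a filter genotype counts were 1, 2 and 3 (DMSO, AA 2wk, AA 4wk). Sample quality weights gave 781 and 1307 between AA 4wk and AA 2wk, 158 and 161 for the interactions, and 1177, 11 and 384 for genotype. Without both AA 2wk libraries numbered 3 the counts were 43 (AA 4wk against AA 2wk, fl/fl), 34 (genotype, DMSO) and 197 (genotype, AA 4wk). The count of members called between AA 4wk and AA 2wk in PTKO, 1, was 0 with pseudocount 0.1, median-of-ratios scaling, voom and the compared groups only. The causes were not tested.

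Leaving out 1 library at a time gave 1 to 161 genes between AA 4wk and AA 2wk in fl/fl, 10 to 1599 in PTKO, 1 to 8 for the interaction at 2 weeks, 1 to 10 for genotype in DMSO, 1 to 110 for genotype in AA 2wk, 5 to 8 members in fl/fl AA 2wk and 0 to 1 members between AA 4wk and AA 2wk in PTKO. With 3 libraries a group, the 95% intervals hold the differences that remain compatible with these data. They are not adjusted for the number of genes tested, whereas the calls are.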
